A study of Arabidopsis thaliana with 12 samples.

Results

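Transposable elements are mobile DNA sequences, and annotated genomes list them beside genes as features of their own. In Arabidopsis most copies are kept silent by DNA methylation, histone methylation and small RNAs, so that few give polyadenylated RNA in a seedling. Copies that lie inside or beside a transcribed gene can also collect reads of that gene's transcript, because a count table credits reads by position and not by promoter. The features described here are the rows of the deposited tables with a transposable element identifier of chromosomes 1 to 5 and a summed count over all 12 libraries of at least 100. They were chosen by that summed count, so their being detected is not a finding. There were 525 such features among 31189 transposable element rows, which is 1.68%, and each table had 69383 rows in all.

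The libraries came from whole 12-day seedlings of Arabidopsis thaliana of 2 genotypes: Col-0, which is wild type, and RNAi-MARS, in which an RNA interference construct is directed at the long non-coding RNA MARS. The series asks how lowering MARS changes the response to the plant hormone abscisic acid (ABA). Each genotype was collected before (0 h) and 4 h after a spray of 10 µM ABA in water, with 3 libraries per group named A, B and C. The 4 groups shared the medium with sucrose, the growth conditions and the age, and no sprayed control without the hormone at 4 h was analysed here, so that hormone, spray and elapsed time cannot be told apart. The labels do not say whether the libraries of a group came from separate cultures, so p-values measure only how far these samples spread, and that spread may be technical. They also do not say how many transgenic lines RNAi-MARS stands for.

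Total counts ran from 19020202 to 38787804 per library. MARS was at 0.317 to 6.52 counts per 1000000 counts of the library (CPM) in Col-0 at 0 h and at 9.20 to 20.9 at 4 h, against 0.150 to 0.196 and 1.50 to 4.10 in RNAi-MARS, so the genotypes did not overlap at either time. Reads of the interference construct would be counted to MARS as well. Leaf and root markers were both present: RBCS1A, a Rubisco small subunit gene, lay between 4977 and 12620 CPM and the root beta-glucosidase gene PYK10 between 1776 and 2969, while the root nitrate transporter gene NRT2.1 stayed at or under 0.400. Of 5 floral genes, AP1, AP3 and AG stayed at or under 0.217 CPM, PI at or under 0.872, and SEP3 lay between 4.64 and 10.3. Library B of RNAi-MARS after ABA was the deepest and had the lowest summed leaf markers (26801 CPM against 33541 to 44823 in the other 11) and the highest summed root markers (3046 against 1806 to 2815). Its normalization factor was 1.12 where the other libraries lay between 0.921 and 1.03.

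Most transposable element rows gave no read at all. Of the 31189 rows, 26376 had a summed count of 0, 4288 had a count above 0 but under 100, and 525 reached the threshold. The rows AT1TE70530 and AT5TE91490 at 100 and AT3TE43550 at 100.5 were the last inside it, and AT3TE18050 and AT4TE52540 at 99.5 and AT4TE25325 at 99.3 were the first outside. The features were spread over the genome: chromosomes 1 to 5 held 135, 88, 110, 78 and 114 of them, which is 1.89%, 1.48%, 1.70%, 1.57% and 1.71% of the element rows there. Their mean level ran from 0.296 to 162 CPM, with a median of 1.16 CPM. The 21570 nuclear gene rows that reached the same summed count had a median of 15.5 CPM, both as read counts and not per length. A count was present in all 12 libraries for 517 of the 525 features.

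Most expressed features stood beside a row with a gene identifier. The gene rows follow the order of the genome: no gene row stepped back to a lower start on any of the 5 chromosomes when set against the gene table of TAIR10.1. The place of the element rows among them could not be checked, and the row before or after an element is taken as its neighbour. A gene row stood directly before or after 478 of the 525 features (91.0%), compared with 18527 of all 31189 element rows (59.4%). Gene rows here include pseudogenes and rows that annotate an element itself, such as AT2G10410 (SADHU1-1), so some features may neighbour their own annotation. The tables give no coordinates for the elements, so whether a feature lies inside a gene, in its untranslated region or beyond its end was not determined.

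Many of these features also shared reads with a gene. Deposited counts were not always whole numbers, which means that a read could be divided. A fraction was present in 58.7% of the features' values compared with 10.5% of values of the nuclear genes. How reads with several matches were handled is not given. Some fractions may therefore come from reads that match several copies of an element, which could not be told apart. For 235 features the fraction equalled that of 1 gene row within 10 rows in every library, so that feature and gene were credited with parts of the same reads. That gene was the row directly before the element in 172 cases and directly after it in 37. It was protein coding in 168 cases, a pseudogene in 63 and of another type in 4. Another 265 features had fractions without such a match, and any with a fraction in fewer than 3 libraries were not compared. The remaining 25 features had whole counts in every library. The gene row held more counts than its element in 193 of the 235 pairs, with a median ratio of 13.1 in counts that were not scaled by length.

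The summed level of the 525 features was a small share of every library. It was 1591, 1616 and 1608 CPM in Col-0 at 0 h and 1586, 1681 and 1702 CPM at 4 h. In RNAi-MARS it was 1602, 1705 and 1715 CPM before ABA and 1789, 1853 and 1850 CPM at 4 h. The 3 libraries of RNAi-MARS after ABA were the highest of all 12 and did not overlap those of Col-0 after ABA, while the other 3 groups overlapped one another. These sums are 0.159% to 0.185% of all counts. In whole seedlings a change in the number of cells that express a feature and a change in RNA per cell cannot be told apart, here and in all results that follow.

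The order of that last group depended on scaling. With TMM factors, which correct for a few abundant genes taking up reads, its libraries stood at 1730, 1654 and 1851 CPM, and Col-0 after ABA stood at 1612, 1660 and 1691. The groups then overlapped, because library B, the one with the high normalization factor and the low leaf markers, moved down. The part of those markers in the summed level was not tested. The 10 features with the highest mean held 30.6% of all counts of the 525, and AT5TE72200 alone held 9.62%.

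**Figure D1:**
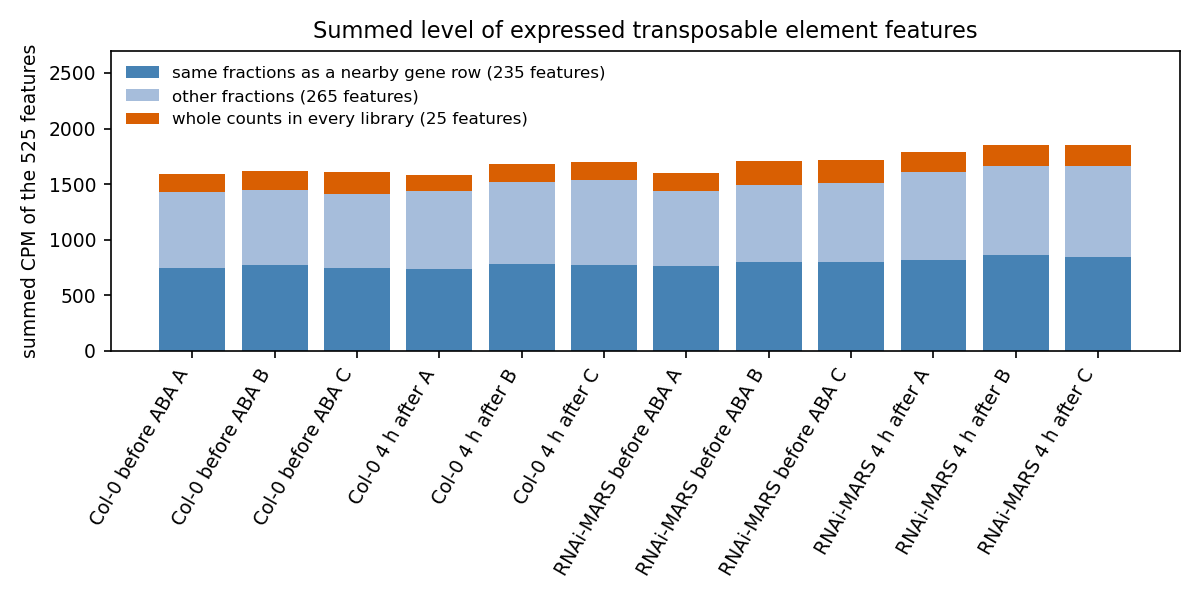
Summed level in CPM (vertical axis) of the 525 expressed transposable element features in each of the 12 libraries (horizontal axis), stacked by whether their counts were divided like those of a nearby gene row, divided otherwise, or whole. Bars run from 1586 to 1853 CPM, the 3 libraries of RNAi-MARS after ABA are the tallest, and the 25 features with whole counts make up the thin top segment.

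The most abundant feature did not pass the test of the ABA response in either genotype. AT5TE72200 lies between AT5G49440 and bZIP1, a transcription factor gene of the energy starvation response, and its counts were whole in every library. It stood at 147, 155 and 179 CPM in Col-0 at 0 h, 130, 152 and 151 at 4 h, 148, 199 and 193 in RNAi-MARS at 0 h and 165, 160 and 167 at 4 h. Times overlapped in both genotypes, and at 4 h every RNAi-MARS library was above every Col-0 library, with a log2 difference of 0.12 ± 0.14 that did not pass (edgeR adjusted p 0.823). The log2 difference after against before was -0.20 ± 0.14 (SE) for Col-0 and -0.23 ± 0.14 for RNAi-MARS, with edgeR adjusted p-values of 0.281 and 0.204.

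The second feature by mean level rose strongly. AT4TE42860 lies between AT4G16857, a disease resistance gene of the TIR-NBS-LRR class, and the pseudogene AT4G16870. It stood at 23.8, 22.2 and 22.5 CPM in Col-0 at 0 h and at 102, 110 and 125 at 4 h, and at 21.7, 19.8 and 24.3 in RNAi-MARS at 0 h and 124, 102 and 101 at 4 h. The times were far apart in both genotypes and the genotypes overlapped at each time. The log2 difference was 2.25 ± 0.12 in Col-0 (edgeR adjusted p 3.26e-07) and 2.21 ± 0.12 in RNAi-MARS (3.8e-07).

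AT2TE16945 shares its read fractions with AT2G10410, annotated as SADHU1-1, a member of the Sadhu family of non-coding retrotransposons. It stood at 51.0, 60.8 and 60.4 CPM in Col-0 at 0 h, 40.2, 52.3 and 53.4 at 4 h, 58.5, 72.0 and 70.4 in RNAi-MARS at 0 h and 60.8, 62.1 and 59.3 at 4 h. Times overlapped in both genotypes, and neither response passed the test (edgeR adjusted p 0.0905 and 0.143).

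2 other abundant features changed in both genotypes, in opposite directions. AT2TE12510, between the long non-coding RNA gene AT2G05045 and the pseudogene AT2G06950, lay at 36.2 to 48.7 CPM at 0 h and fell to 22.5 to 30.1 CPM in Col-0, and lay at 45.3 to 53.2 and fell to 22.7 to 30.3 in RNAi-MARS, with log2 differences of -0.79 ± 0.18 and -0.96 ± 0.18 (edgeR adjusted p 0.00435 and 0.00122). AT2TE09335, beside the glycine-rich protein gene AT2G05540, lay at 14.6 to 20.5 CPM at 0 h and rose to 24.6 to 33.7 CPM in Col-0, and lay at 11.3 to 18.7 and rose to 39.2 to 60.6 in RNAi-MARS, with log2 differences of 0.79 ± 0.26 and 1.46 ± 0.26 (0.0336 and 0.00132). The groups before and after did not overlap in either genotype for these 2 features.

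Among the remaining 5 of the 10 most abundant, AT1TE41800 fell in Col-0 by 0.30 ± 0.08 on the log2 scale (edgeR adjusted p 0.00984) and AT1TE98440 fell in RNAi-MARS by 0.29 ± 0.08 (0.0143). Both share read fractions with a pseudogene row, AT1G35115 and AT1G80020. AT2TE54200 with CXIP4, AT2TE26110 with the arabinogalactan protein gene AGP9 and AT2TE73080 beside the aquaporin gene PIP2E passed in neither genotype, with adjusted p-values of 0.149 to 0.973.

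By edgeR, features were called in the ABA responses and in no other comparison. Few rows of any kind were called elsewhere: 0.089% between the genotypes at each time and 0.0% for the difference of responses. Of the 525, 522 passed the filter on low counts and were tested, and AT1TE63745, AT1TE71830 and AT3TE08295 were not. In Col-0, 113 features were called at an edgeR adjusted p under 0.05, 48 higher and 65 lower, which is 21.6% of those tested, while 40.0% of all 22465 tested rows were called, 20.7% higher and 19.3% lower. In RNAi-MARS 123 were called, 59 higher and 64 lower, which is 23.6% against 42.6% of all tested rows, 21.6% higher and 21.0% lower. The share was thus below the background in both genotypes. Without library A or library C of Col-0 at 0 h, or library A at 4 h, the lower calls in Col-0 numbered 43, 42 and 42, and a fit to the compared groups alone gave 41 lower and 59 higher calls in RNAi-MARS.

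The features are counted less deeply than genes, and the share called rose with depth. Their median SE of the log2 difference was 0.302 in Col-0, against 0.153 over all tested rows. Of the 303 tested features with a summed count from 100 to under 500, 16.8% were called in Col-0, compared with 23.8% of 164 from 500 to under 2000 and 41.8% of 55 from 2000 up. In RNAi-MARS these shares were 18.2%, 28.0% and 40.0%. The median log2 difference of the tested features was -0.07 for Col-0 and -0.04 for RNAi-MARS, and over all tested rows it was -0.00 and -0.02.

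Both genotypes called many features in common. 65 features were called in each of them, all in the same direction, 30 higher and 35 lower. That is 57.5% of the Col-0 calls and 52.9% of the RNAi-MARS calls. Over all tested rows the shared calls were 80.3% and 75.4%. Of the called features, 48 were called in Col-0 alone and 58 in RNAi-MARS alone, which does not show that their responses differed, since no difference of responses passed its own test.

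**Figure D2:**
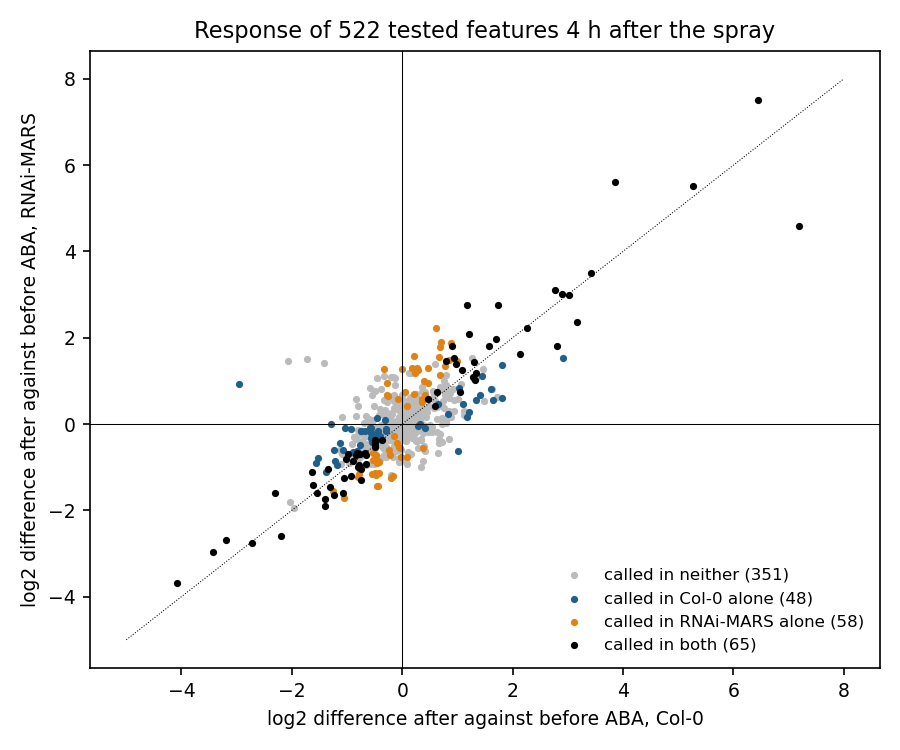
Log2 difference 4 h after against before ABA in Col-0 (horizontal axis) and RNAi-MARS (vertical axis) for the 522 tested features, coloured by where they were called at an edgeR adjusted p under 0.05. The 65 features called in both genotypes lie in the lower left and upper right, and the dotted line marks equal differences.

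The limit on the summed count favoured features that differ between the times. For 72 of the 525, both times at their lower level would have left the sum under 100, so that they are included through the time at which they are high. They make up 25 of the 113 calls in Col-0 and 26 of the 123 in RNAi-MARS, and these calls are no support for a response of the features. Among the named features this holds, through the 4 h libraries, for AT5TE76490, AT5TE38270, AT4TE10030, AT3TE37080, AT1TE42350, AT5TE93305, AT5TE34945, AT4TE25350 and AT2TE28180. It holds through the 0 h libraries for AT2TE10595, AT4TE50935, AT2TE18505, AT5TE55640, AT3TE43605 and AT3TE43635. The values of these 15, and of AT5TE91840 named further below, are given as a description. Of the 453 other features, 19.4% were called in Col-0 (30 higher, 58 lower) and 21.4% in RNAi-MARS (42 higher, 55 lower). Over all tested rows the shares were 40.0% and 42.6%. The 65 shared calls and the counts of called gene rows beside features include calls of the 72.

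The features with the steepest rise came from near 0 counts. AT5TE76490 lies between LTI78, also called RD29A, a dehydration and cold response gene widely used as a marker of ABA signalling, and CYP96A4. Its counts were whole in every library: 0, 0 and 0 reads in Col-0 at 0 h and 25, 11 and 12 at 4 h, and 0, 0 and 2 reads in RNAi-MARS at 0 h and 25, 27 and 12 at 4 h. Every library after ABA was above every library before. LTI78 itself ran from 18.3 to 1393 CPM, with log2 differences of 5.27 ± 0.28 and 5.60 ± 0.28.

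AT5TE38270 shares its read fractions with AT5G28520, a mannose-binding lectin gene. Its counts were 0, 0 and 0 in Col-0 at 0 h and 8, 4.5 and 16.5 at 4 h, and 0, 0 and 0.5 in RNAi-MARS at 0 h and 34, 21.5 and 17.5 at 4 h. Every library at 4 h was above every library at 0 h. The lectin gene rose by a log2 difference of 5.63 ± 0.36 in Col-0 and 5.67 ± 0.36 in RNAi-MARS.

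AT4TE10030 follows RbcX1, a chaperonin-like gene of Rubisco assembly. It stood at 0.0981, 0.0349 and 0 CPM in Col-0 at 0 h and 1.14, 1.37 and 2.43 at 4 h, and at 0.0392, 0 and 0.0812 in RNAi-MARS at 0 h and 3.23, 1.57 and 2.75 at 4 h. All libraries at 4 h were above all libraries at 0 h in both genotypes. RbcX1 rose by 4.14 ± 0.28 and 4.37 ± 0.28 on the log2 scale.

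AT3TE37080, after the alpha/beta-hydrolase gene AT3G24420, was counted more deeply, though it too was included through its 4 h counts. It stood at 0.294, 0.209 and 0.230 CPM in Col-0 at 0 h and 2.79, 3.55 and 4.70 at 4 h, and at 0.177, 0.0752 and 0.0812 in RNAi-MARS at 0 h and 6.24, 5.38 and 6.15 at 4 h. Both responses were free of overlap, and RNAi-MARS was above Col-0 in every library after ABA and below it in every library before. The log2 difference was 3.86 ± 0.28 in Col-0 and 5.60 ± 0.31 in RNAi-MARS (edgeR adjusted p 2.39e-06 and 4e-07). The hydrolase gene rose by 4.47 ± 0.24 and 4.93 ± 0.25, while HCF101, the gene row after the element, fell by 0.48 ± 0.14 and by 0.62 ± 0.14. The difference of the element's responses, 1.74 ± 0.45, did not pass (edgeR adjusted p 0.946).

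AT1TE66735 shares its read fractions with ALDH7B4, an aldehyde dehydrogenase gene induced by drought and salt. It stood at 4.49, 4.41 and 2.35 CPM in Col-0 at 0 h and 9.51, 13.7 and 14.8 at 4 h, and at 3.08, 2.68 and 3.22 in RNAi-MARS at 0 h and 19.0, 20.9 and 25.3 at 4 h. The RNAi-MARS libraries after ABA were all above those of Col-0. The log2 differences were 1.73 ± 0.23 and 2.76 ± 0.24 (edgeR adjusted p 0.000163 and 6.97e-06), beside 2.01 ± 0.18 and 2.26 ± 0.18 for ALDH7B4, and the difference of the element's responses, 1.03 ± 0.32, did not pass (0.946).

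Other rising features neighboured genes that rose as well. AT5TE93305 with DPE1, the plastid disproportionating enzyme of starch breakdown, differed by 3.17 ± 0.43 and 2.35 ± 0.42 on the log2 scale, and DPE1 by 2.75 ± 0.12 and 2.50 ± 0.12. AT4TE25350 with the glycosyltransferase gene AT4G09500 differed by 2.90 ± 0.34 and 3.01 ± 0.33, and the gene by 2.94 ± 0.18 and 2.65 ± 0.18. AT2TE28180 after the leucine-rich repeat gene AT2G15880 differed by 2.77 ± 0.45 and 3.10 ± 0.42, and the gene by 2.39 ± 0.21 and 2.62 ± 0.21. AT1TE42350, after the small nuclear RNA gene U4.10, and AT4TE51190, after the berberine family gene AT4G20830, also rose in both genotypes with their neighbour. All of these elements passed in both genotypes, with edgeR adjusted p-values of 3.4e-05 to 0.0368. All except AT4TE51190 were included through their 4 h counts, so those passes are a description and no support for a response.

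1 of the rising elements went against the gene row before it. AT5TE34945 stood at 0.0981, 0.384 and 0.317 CPM in Col-0 at 0 h and 2.40, 2.23 and 2.49 at 4 h, and at 0.137, 0.276 and 0.311 in RNAi-MARS at 0 h and 3.13, 1.66 and 2.00 at 4 h. The groups were far apart in both genotypes, with log2 differences of 3.02 ± 0.42 and 2.99 ± 0.42 (edgeR adjusted p 0.000195 and 0.000194). This element was also included through its 4 h counts. AT5G27330, a prefoldin-type chaperone gene in the row directly before it, fell by 0.78 ± 0.12 and by 1.13 ± 0.12, and the next gene row, AT5G27340, had no count in any library.

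**Figure D3:**
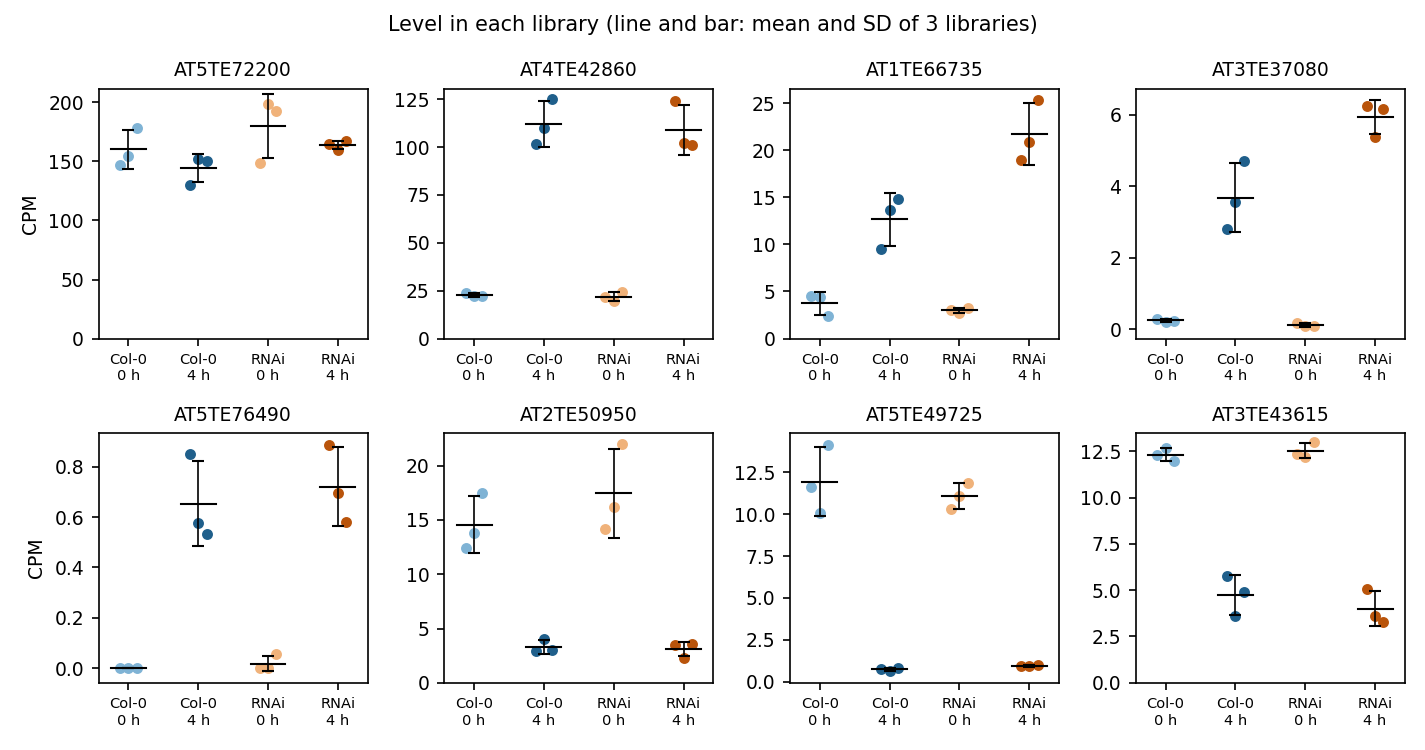
Level in CPM (vertical axis, its own linear scale in each panel) of 8 features in the 4 groups (horizontal axis), with points for libraries A, B and C, a line for the mean and a bar for the SD of 3 libraries. AT5TE72200 overlaps between times, AT4TE42860, AT1TE66735, AT3TE37080 and AT5TE76490 are higher at 4 h in every library, and AT2TE50950, AT5TE49725 and AT3TE43615 are lower.

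Several of the features that fell started from a higher level than most. AT5TE49725 stood at 11.6, 10.1 and 14.2 CPM in Col-0 at 0 h and 0.764, 0.605 and 0.801 at 4 h, and at 10.3, 11.1 and 11.9 in RNAi-MARS at 0 h and 0.924, 0.902 and 0.990 at 4 h. All libraries after ABA were below 1 CPM and all libraries before were above 10 CPM. The log2 difference was -4.08 ± 0.20 in Col-0 and -3.68 ± 0.19 in RNAi-MARS (edgeR adjusted p 1.45e-07 and 2.59e-07). The next row, the pseudogene AT5G35777, ran from 0.631 to 14.2 CPM and followed it with a Pearson r of 1.00 over the 12 libraries, so the element and the pseudogene have nearly the same counts.

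AT2TE50950 follows AT2G27402, annotated as a plastid transcriptionally active protein. It stood at 12.4, 13.8 and 17.5 CPM in Col-0 at 0 h and 2.89, 4.05 and 3.01 at 4 h, and at 14.1, 16.2 and 22.0 in RNAi-MARS at 0 h and 3.45, 2.32 and 3.55 at 4 h. Times did not overlap and genotypes did. The log2 differences of -2.19 ± 0.25 and -2.60 ± 0.26 (edgeR adjusted p 6.56e-05 and 1.83e-05) lay beside -2.28 ± 0.24 and -2.35 ± 0.24 for AT2G27402, which was the gene row most like it of all nuclear genes (r 0.995 over 12 libraries).

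AT5TE55640 follows RBCS1B, a Rubisco small subunit gene, and was included through its 0 h counts. It fell by 3.42 ± 0.53 in Col-0 and by 2.96 ± 0.48 in RNAi-MARS on the log2 scale (edgeR adjusted p 0.000404 and 0.000495). RBCS1B, from 590 to 2506 CPM, fell by 1.3 ± 0.24 and by 1.58 ± 0.24. AT2TE05820 with CR88, the chloroplast Hsp90 chaperone, fell by 2.30 ± 0.32 and by 1.59 ± 0.30, and CR88 by 1.54 ± 0.14 and by 1.79 ± 0.14. Both elements therefore lie beside photosynthesis or plastid genes that fell.

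A run of neighbouring elements fell together. AT3TE43605, AT3TE43610 and AT3TE43615 lie between the pseudogene AT3G28160 and the gene AT3G28170, and AT3TE43635 follows AT3G28170. AT3TE43615, the most abundant of them, stood at 12.3, 12.7 and 12.0 CPM in Col-0 at 0 h and 5.75, 3.59 and 4.89 at 4 h, and at 12.4, 12.2 and 13.0 in RNAi-MARS at 0 h and 5.07, 3.63 and 3.31 at 4 h. Its log2 differences were -1.41 ± 0.19 and -1.75 ± 0.19 (edgeR adjusted p 0.000155 and 3.15e-05), and the other 3 of the run differed by -1.05 to -1.41 in Col-0 and by -1.65 to -1.91 in RNAi-MARS. All 4 passed in RNAi-MARS and 3 in Col-0, where AT3TE43635 had an adjusted p of 0.0742. AT3TE43605 and AT3TE43635 were included through their 0 h counts. AT3G28160 fell by 1.40 ± 0.16 and by 1.77 ± 0.17, so the run and the pseudogene before it moved alike. Elements of 1 run may share reads, and the 4 are not independent.

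Pseudogene rows, which may annotate the same element, stood beside several other falling features. AT4TE03295 with AT4G01490 differed by -3.19 ± 0.56 and -2.69 ± 0.52 on the log2 scale, AT2TE18505 after AT2G11150 by -2.72 ± 0.65 and -2.77 ± 0.63, AT2TE10595 with AT2G05950 by -1.63 ± 0.36 and -1.11 ± 0.39, and AT4TE67490 before AT4G28900 by -1.07 ± 0.22 and -1.61 ± 0.22. All of these passed in both genotypes, with edgeR adjusted p-values of 0.000186 to 0.0371. AT2TE18505 and AT2TE10595 were included through their 0 h counts. AT3TE18040 fell by 1.62 ± 0.32 and by 1.42 ± 0.30 against the gene row before it, AT3G13240, which was higher at 4 h by a log2 difference of 0.43 ± 0.27 for Col-0 and 1.17 ± 0.27 for RNAi-MARS (edgeR adjusted p 0.234 and 0.00476). AT4TE50935, included through its 0 h counts, passed in Col-0 (-1.57 ± 0.43, edgeR adjusted p 0.0123) and not in RNAi-MARS (-0.90 ± 0.40, 0.0956).

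AT2TE06390 fell in Col-0 unevenly. It had 4.31, 4.04 and 0.749 CPM at 0 h and 0.187, 0.223 and 0.746 at 4 h, so that the lowest library at 0 h and the highest at 4 h nearly met, and it had 1.61, 0.326 and 0.352 in RNAi-MARS at 0 h and 1.2, 2.7 and 0.688 at 4 h. The log2 difference was -2.96 ± 0.87 in Col-0 (edgeR adjusted p 0.0203) and 0.94 ± 0.81 in RNAi-MARS (0.377). Without library A or B of Col-0 at either time the Col-0 call was lost, with edgeR adjusted p-values of 0.0547 to 0.0733, and limma-voom on all libraries gave 0.0731.

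Features that share fractions with a gene row were mostly called where that row was called in the same direction. Of the 235 pairs, 53 elements (22.6%) and 100 genes were called in Col-0, beside 40.0% of all tested rows. In 47 pairs both were called, all in the same direction. No called element had the opposite sign to its gene, and 6 were called where the gene was not. In RNAi-MARS 54 elements (23%) and 107 genes were called, beside 42.6% of all tested rows. There 47 pairs held both, again all in the same direction, and 7 elements were called alone. Across the 235 pairs the log2 differences had a Pearson r of 0.923 in each genotype, as a description of pairs that count parts of the same reads. In some pairs, among them AT2TE16945 with SADHU1-1, AT1TE02770 with Sadhu4-2 and AT5TE19520 with MUG4, both rows had equal log2 differences and adjusted p-values. Their levels had an r of 1.0 over the 12 libraries, so agreement in such pairs was fixed in advance. The counts of pairs called in both rows include such pairs.

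The pairs varied in how closely levels matched. Over the 12 libraries the log2 CPM of element and gene had a median r of 0.818, with 89 pairs over 0.9 and 63 pairs at or below 0.5. Among the 32 features named for a comparison, the nuclear gene row most like the feature in log2 CPM over the 12 libraries was the gene row before it for 5 and the gene row after it for 2. Of these neighbouring rows all but AT2G27402, a protein-coding gene, are pseudogenes. Counting all 113 features called in Col-0, 94 had a tested gene row directly beside them, and in 81 of these such a row was called in the same direction. In RNAi-MARS this was so for 84 of 104. A gene row beside the element was called in the opposite direction for 15 features in each genotype, and no gene row beside it was called in the same direction for 13 and 20. As background, of the called nuclear genes with a tested gene row beside them, 32.4% in Col-0 and 34.8% in RNAi-MARS had one called in the same direction, against 86.2% and 80.8% of the features, which in part count the reads of that row.

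**Figure D4:**
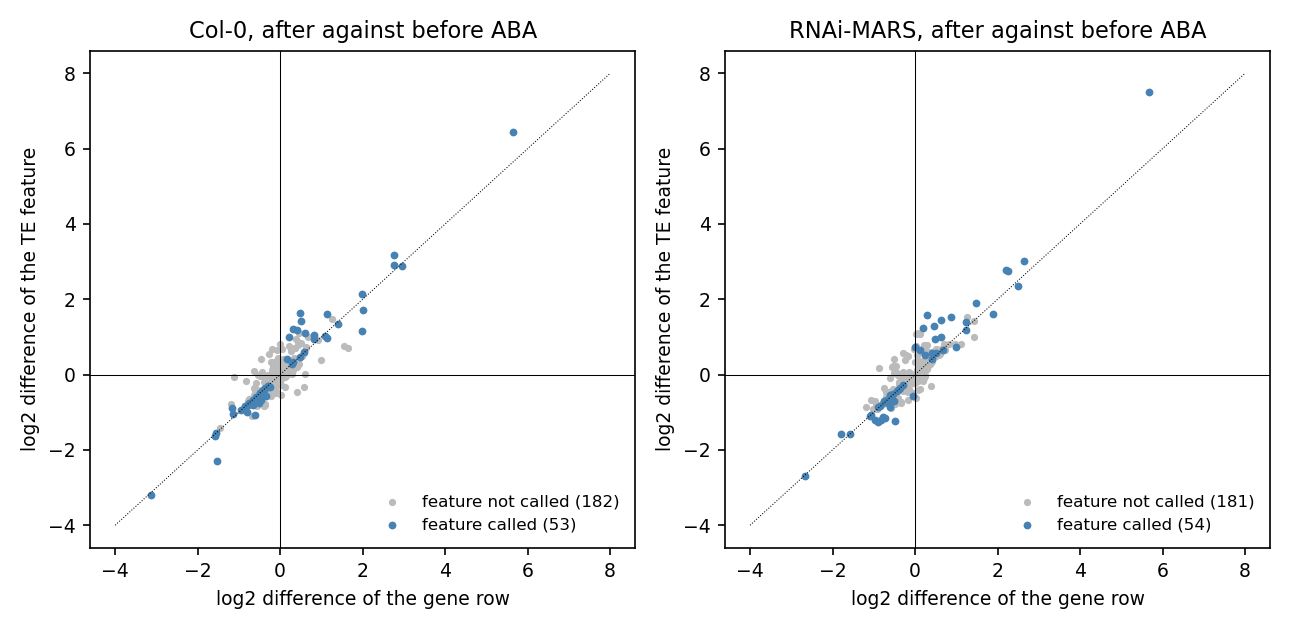
Log2 difference after against before ABA of the 235 elements (vertical axes) against that of the gene row with the same read fractions (horizontal axes), in Col-0 on the left and RNAi-MARS on the right. Called elements lie in the lower left and upper right, at varying distances from the dotted line of equal differences. Some pairs have the same values in both rows and lie on that line.

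The 25 features whose counts were whole in all libraries showed no sign of divided reads. 24 of them were tested, and 5 were called in Col-0 (20.8%) and 3 in RNAi-MARS (12.5%). Of the 235 elements with a matching gene row, 53 (22.6%) and 54 (23%) were called. Over all tested rows the shares were 40.0% and 42.6%. AT5TE76490, included through its 4 h counts, was called higher in both genotypes. AT5TE91840, at a summed count of 101 that also reached the limit through the 4 h libraries, rose in Col-0 by 1.45 ± 0.51 on the log2 scale. AT3TE43200 and AT5TE32420 rose in RNAi-MARS by 1.36 ± 0.34 and 1.26 ± 0.32. AT1TE69295, AT2TE41455 and AT2TE69230 fell in Col-0, by 1.39 ± 0.48, by 1.18 ± 0.37 and by 0.93 ± 0.29. These were picked out after their values were seen, all other whole-count elements had edgeR adjusted p-values above 0.05 in both responses, and edgeR called no difference of responses for any of them.

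No feature was called between the genotypes before ABA. In RNAi-MARS against Col-0, 0 of 522 features were called by edgeR, beside 0.089% of all tested rows, and DESeq2 and limma-voom also called 0. At an unadjusted p under 0.05, 10 features passed (1.92%) against 4.33% of all rows. The lowest p belonged to AT2TE69230, which stood at 0.834, 0.663 and 0.720 CPM in Col-0 and at 0.471, 0.301 and 0.460 in RNAi-MARS. These did not overlap, but the log2 difference of -0.83 ± 0.28 had an edgeR adjusted p of 0.996. AT2TE10595 and AT1TE71720 followed with log2 differences of -0.91 ± 0.34 and -0.97 ± 0.37, at the same adjusted p.

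After ABA no feature was called by edgeR either, beside 0.089% of all rows. At an unadjusted p under 0.05 71 features passed, 46 higher and 25 lower in RNAi-MARS, which is 13.6% against 8.82% of all rows. Without library A of Col-0 after ABA this count was 34, and without library A of RNAi-MARS after ABA it was 46. limma-voom called 0 and DESeq2 called 1, AT5TE72580.

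AT5TE72580 shares read fractions with AT5G49645 and stood at 15.3, 17.1 and 17.7 CPM in Col-0 after ABA and at 23.3, 25.2 and 20.1 in RNAi-MARS, with no overlap. The log2 difference was 0.38 ± 0.08 (edgeR adjusted p 0.373, DESeq2 adjusted p 0.0279, and 0.0279 to 0.960 over 20 alternatives). AT5G49645 itself differed alike, by 0.42 ± 0.11 (edgeR adjusted p 0.476). AT1TE95230, with TAPX, a thylakoid ascorbate peroxidase gene, and AT1TE57410, with GAMMA CA2, a subunit gene of mitochondrial complex I, were lower in RNAi-MARS by log2 differences of -0.79 ± 0.19 and -0.69 ± 0.18, at adjusted p-values of 0.443 and 0.456. TAPX and GAMMA CA2 themselves differed by -0.25 ± 0.14 and -0.12 ± 0.08.

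No ABA response of a feature was called different between the genotypes by edgeR, DESeq2 or limma-voom, beside 0.0% of all rows. At an unadjusted p under 0.05 43 features passed, 8.24% against 4.79% of all rows. The 3 features with the lowest p were AT5TE67090, AT3TE37080 and AT1TE57410, each with an edgeR adjusted p of 0.946. AT5TE67090 shares read fractions with the GDSL lipase gene AT5G45950. It stood at 0.686, 0.698 and 0.677 CPM in Col-0 at 0 h and 1.21, 1.66 and 1.96 at 4 h, and at 0.490, 0.301 and 0.501 in RNAi-MARS at 0 h and 3.16, 2.80 and 3.50 at 4 h. The libraries after ABA were all higher in RNAi-MARS and those before were all lower. The difference of responses was 1.6 ± 0.37 for the element and 0.21 ± 0.27 for the lipase gene.

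The silencing machinery was read beside the features, with 37 genes, mainly of DNA methylation, histone methylation and small RNA pathways, all of them tested. The list also holds the linker histone genes H1.1 and H1.2 and the DNA glycosylase gene DME. Its counts and median therefore mix genes of different roles and give no direction of silencing. In Col-0, 4 were higher and 9 lower after ABA at an edgeR adjusted p under 0.05, and in RNAi-MARS 3 were higher and 19 lower, which is 35.1% and 59.5% of the list beside 40.0% and 42.6% of all rows called. The list's median log2 difference was -0.06 for Col-0 and -0.35 for RNAi-MARS, with medians over all rows of -0.00 and -0.02. By edgeR 0 of the 37 were called between the genotypes at 0 h, at 4 h or in their responses, with 1, 5 and 7 at an unadjusted p under 0.05. limma-voom also called 0, and DESeq2 called 1, CMT3 (AT1G69770), which was lower in RNAi-MARS at 4 h by a log2 difference of -0.42 (DESeq2 adjusted p 0.00765, edgeR adjusted p 0.164).

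The list's share was below the background in Col-0 and above it in RNAi-MARS. VIM1, SUVH5, SUVH6, DRM2, NRPD2, DCL2, DCL4, SGS3, AGO1, MOM1, HDA6, ROS1, DRD1 and SHH1 passed in neither genotype. CMT3, a chromomethylase of CHG sites, differed by -0.51 ± 0.08 in Col-0 and by -1.04 ± 0.08 in RNAi-MARS, from 27.1 ± 0.302 CPM to 19.7 ± 0.857 and from 29.8 ± 0.397 to 15.5 ± 0.638 (SD, n = 3). DDM1, a chromatin remodeller that keeps elements methylated, differed by -0.40 ± 0.11 and -0.88 ± 0.11. CMT2, the chromomethylase of CHH sites in long elements, differed by -0.50 ± 0.10 and -0.72 ± 0.10. SAHH1, which clears the by-product of methylation reactions, differed by -0.54 ± 0.12 and -0.86 ± 0.12, and AGO6, an Argonaute of RNA-directed DNA methylation, by -1.10 ± 0.23 and -0.73 ± 0.22. All of these passed in both genotypes.

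MET1, the methyltransferase of CG sites, passed in RNAi-MARS with -0.71 ± 0.13 (edgeR adjusted p 0.000994) and not in Col-0 with -0.08 ± 0.13 (0.668). The difference of these responses had an adjusted p of 0.946. The histone methyltransferase genes SUVH4 and ATXR5 differed by -0.47 ± 0.09 and -0.46 ± 0.17 in Col-0 and passed in RNAi-MARS as well. AGO4, another Argonaute of RNA-directed DNA methylation, differed by -0.38 ± 0.10 in Col-0 and -0.58 ± 0.10 in RNAi-MARS, which passed in both, and ATXR6 passed in RNAi-MARS with -0.60 ± 0.22 and not in Col-0 with -0.00 ± 0.22. The genes that rose in Col-0 were the linker histone genes H1.1 (0.64 ± 0.10) and H1.2 (0.42 ± 0.11), the DNA glycosylase gene DME (0.47 ± 0.08) and the remodeller gene CLSY1 (0.39 ± 0.13). The first 3 also rose in RNAi-MARS. Whether these changes bear on the elements was not tested.

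Heat can activate certain Arabidopsis retrotransposons, and 5 heat response genes were read for that reason. HSP70 and HSP17.6 were higher after ABA in Col-0 and all 5, with HSP101, HSFA2 and MBF1C, in RNAi-MARS (edgeR adjusted p under 0.05). In Col-0 at 4 h the libraries were uneven, with a mean ± SD of 12.2 ± 19.1 CPM for HSP17.6. HSFA2 stood there at 11.9 ± 14.3 and HSP101 at 42.5 ± 33.5. The summed level of the 5 genes was 128 to 307 CPM in Col-0 at 0 h and 304 to 452 at 4 h, and 100.2 to 106 in RNAi-MARS at 0 h and 244 to 279 at 4 h. In Col-0 the times overlapped. Its part in the features' levels was not tested.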

How the data were processed

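The authors deposited 1 table per library with estimated counts of reads per feature, without normalization. Per the submitters' processing notes the tools were Trimmomatic 0.36, STAR 2.7.2a and featureCounts of Subread 1.6.5, with the build TAIR10. The strand setting and the handling of reads with several matches are not given in the sources used here. Reads of an element therefore cannot be told apart from those of a gene on the other strand or of another copy.

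CPM were computed over all rows of a table. Rounded counts of the 12 libraries went into edgeR 4.0.16 (R 4.3.3) and its quasi-likelihood test, using TMM factors, the filterByExpr minimum of 10 and robust dispersions. Adjusted p-values are Benjamini-Hochberg over 22465 rows, tests are 2-sided, and SE is the log2 difference divided by the square root of F. Alternatives used DESeq2 1.42.0 and limma 3.58.1. Fractions were matched within 10 rows, at a tolerance of 0.011, with a fraction in at least 3 libraries. Gene names and neighbours come from RefSeq's TAIR10.1. Totals of 19020202 to 38787804 counts set the depth.

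The features and lists were chosen with earlier results of these data known. Named features were the 10 highest by mean CPM, per comparison up to 10 called features in each direction without overlap of groups, the 3 smallest p-values where none was called, and the rows around the threshold. Called silencing genes were named up to 8 per comparison, and others were named after their values were seen.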

Additional observations from a re-analysis of the deposited data

How the results depend on the processing

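The number of features called for the ABA response stayed within 1.5 times of 113 in Col-0 and 123 in RNAi-MARS under every other tool, filter, scaling and left-out library tried. By direction, a fit to the compared groups alone gave 59 higher and 41 lower calls in RNAi-MARS, against 59 and 64. Leaving out library A or C of Col-0 at 0 h or library A at 4 h gave 43, 42 and 42 lower calls in Col-0, against 65. Leaving out 1 library gave 78 to 126 calls in Col-0 and 88 to 125 in RNAi-MARS. A summed count of at least 500 as the limit left 219 features. It gave 62 calls in Col-0 (18 higher, 44 lower) and 68 in RNAi-MARS (28 higher, 40 lower), since fewer features were counted. In the genotype comparisons and the difference of responses every setting gave 0 calls, except DESeq2 after ABA with 1. Counts at an unadjusted p under 0.05 were less stable: leaving out 1 library gave 2 to 23 before ABA, 34 to 94 after it and 20 to 65 for the difference of responses. Deviations of same-letter libraries had r from -0.288 to 0.486 over 18 pairs, above 0 in 12 and over 0.1 in 8, and the labels name no shared batch, so the letters were not taken to pair samples. The replicate block gave 110 and 122 calls for the ABA response and 0 elsewhere. Among single named features, 954 of the values under alternatives kept direction and call, 5 lost the call, all of AT2TE06390 in Col-0, and 1 gained it, AT5TE72580 under DESeq2.

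The mean summed level was 1605, 1656, 1674 and 1831 CPM in Col-0 before and after ABA and in RNAi-MARS before and after. Without AT5TE72200 it was 1445, 1512, 1494 and 1667, and over all element rows 1719, 1769, 1784 and 1964. With TMM factors it was 1655, 1654, 1708 and 1745. Depth limits the features: the median SE was 0.302 in Col-0 for features and 0.153 for all rows, so modest differences of features under a summed count of 500 were often not detectable.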

Other observations

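AT1TE37065, between the aquaporin gene NIP3;1 and AT1G31910, had whole counts and varied between libraries of 1 group, which was noticed after its values were seen. It stood at 2.84, 4.05 and 1.44 CPM in Col-0 at 0 h and 0.578, 1.47 and 0.579 at 4 h, and at 2.32, 0.903 and 0.812 in RNAi-MARS at 0 h and 1.56, 10.5 and 0.386 at 4 h. Library B of RNAi-MARS after ABA had the highest value of all 12, in the library that also had the lowest leaf markers. No comparison passed for it (edgeR adjusted p 0.185 to 0.996).

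The spread between libraries was wider for the features than for genes. The median coefficient of variation within a group was 17.0% to 23.3% for the 525 features and 9.19% to 14.1% for the 21570 nuclear genes, and both were widest in RNAi-MARS after ABA. The number of element rows with any count ran from 1759 to 2602 per library, with the highest number in the deepest library.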
